A study of Arabidopsis thaliana with 12 samples.

Results

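In wild-type Arabidopsis thaliana seedlings, 122 of 32420 gene loci combined a 22-nt level above a set minimum with a 22-nt share above a set bound. The loci were chosen by 2 conditions on the deposited means of Col-0. Each locus held at least 50 normalized 22-nt reads on both media. Normalized 22-nt reads also made up at least 65% of its normalized 21- plus 22-nt reads on both media. Loci of the chloroplast and mitochondrial genomes were left out, and so was the locus AT1G29265. At the chosen loci the 22-nt share stayed high in dcl4-2, a mutant of DICER-LIKE 4 (DCL4). Their 22-nt and 21-nt levels were mostly lower in dcl4-2 than in Col-0 on medium without nitrogen. Within dcl4-2 more of them fell than rose when nitrogen was left out. The same was seen over all loci with at least 10 normalized reads in 3 libraries.

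The study sequenced small RNA of whole seedlings, 10 days old and collected at 15 h. The 4 groups were wild type Col-0 and the mutant dcl4-2, each on MS medium with nitrogen (MS) or on MS medium without it (MS-N), with 3 biological replicates per group and 12 libraries in all. The labels say no more of the dcl4-2 line, and MS is the plant culture medium of Murashige and Skoog. The comparisons ask how small RNAs of each length depend on DCL4 and on nitrogen. A level counts the small RNA reads that matched a locus and says nothing of how much messenger RNA the locus makes. In whole seedlings, fewer cells that make a small RNA and less of it per cell cannot be told apart.

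Plants cut small RNAs with several Dicer-like enzymes. DCL1 releases microRNAs from hairpin precursors, DCL4 makes 21-nt siRNAs from long double-stranded RNA, and DCL2 makes 22-nt siRNAs from it. The 22-nt size class is known for its ability to start the copying of a target RNA into new double-stranded RNA, and for becoming more prominent when DCL4 is missing. Pseudogene is the RefSeq term for a gene copy that no longer encodes a full protein, and in Arabidopsis many such loci derive from transposons.

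Only 4 of the 122 loci are microRNA genes. Their annotated mature products, with the sequence from the RefSeq annotation of TAIR10.1, are shown because the annotated length can be set beside the measured one. Capitals mark the seed, bases 2 to 8.
miR831-5p: aGAAGCGUacaaggagaugagg
miR831-3p: uGAUCUCUucguacucuucuug
miR156a-5p: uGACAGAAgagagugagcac
miR156b-5p: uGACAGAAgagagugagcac
miR156a-3p: gCUCACUGcucuuucugucaga
miR156b-3p: uGCUCACCucucuuucugucagu
miR319c: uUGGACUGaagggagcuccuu
miR319a: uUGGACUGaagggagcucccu

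Both products of MIR831 are annotated at 22 nt. The 5p products of MIR156a and MIR156b share their seed and are 20 nt long, and the 3p products are 22 nt and 23 nt long. The one annotated product of MIR319c is 21 nt long and shares its seed with miR319a, whose gene was not among the 122 loci. The precursors of MIR831 (chr2:10247206-10247462, plus strand) and MIR319c (chr2:17029701-17029899, plus strand) follow, as limma gave them the largest negative and positive log2 change on MS-N among the 122 loci in dcl4-2 at 22 nt, both resting in part on single libraries. Capitals mark the annotated mature products.
MIR831: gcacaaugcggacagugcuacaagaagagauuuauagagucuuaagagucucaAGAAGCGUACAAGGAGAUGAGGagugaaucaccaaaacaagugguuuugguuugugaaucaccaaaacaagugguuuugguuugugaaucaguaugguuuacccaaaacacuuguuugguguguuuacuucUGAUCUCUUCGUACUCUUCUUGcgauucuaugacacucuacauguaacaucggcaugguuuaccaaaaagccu
MIR319c: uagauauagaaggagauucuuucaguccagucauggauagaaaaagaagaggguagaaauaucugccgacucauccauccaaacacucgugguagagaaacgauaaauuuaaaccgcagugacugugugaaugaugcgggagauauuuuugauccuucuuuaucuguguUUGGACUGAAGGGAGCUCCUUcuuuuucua
MIR156a lies at chr2:10676451-10676573, minus strand, and MIR156b at chr4:15074899-15075081, plus strand, where it overlaps another gene on the same strand.

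Many of the other loci share sequence with one another. The stretches below are shared by loci that are described together, and a 22-nt read from the stretch in capitals matches each of them equally well. Flanks of 10 bases are in lower case, all 3 stretches are read from the minus strand of TAIR10.1, and the coordinates are those of the capitals.
AT1G43740, shared with AT1G43750 and AT5G31927, chr1:16514135-16514259: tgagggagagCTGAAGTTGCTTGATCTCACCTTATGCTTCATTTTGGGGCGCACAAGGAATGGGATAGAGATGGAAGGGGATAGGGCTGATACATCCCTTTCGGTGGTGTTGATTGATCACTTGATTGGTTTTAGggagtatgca
AT5G29975, shared with AT5G31719, the first 150 of 415 shared bases, chr5:11325803-11325952: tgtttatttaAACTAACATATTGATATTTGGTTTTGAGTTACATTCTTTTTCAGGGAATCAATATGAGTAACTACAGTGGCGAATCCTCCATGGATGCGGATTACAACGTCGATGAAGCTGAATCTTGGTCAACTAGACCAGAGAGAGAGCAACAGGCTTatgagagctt
AT5G15420, shared with AT5G54700 in the opposite orientation, chr5:5007980-5008064: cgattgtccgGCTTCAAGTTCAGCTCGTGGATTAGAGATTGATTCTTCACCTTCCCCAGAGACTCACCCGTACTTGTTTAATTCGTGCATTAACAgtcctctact

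Values at a locus are normalized reads, whole reads divided by a library size factor. The deposited tables give means of 3 libraries, from which the single libraries were recovered at all 122 loci and both lengths. The labels' replicate numbers could not be restored, so library 1, 2 and 3 name the order of the size factors in a group, largest first, and values are listed in that order. Libraries of the 21-nt and the 22-nt table could not be matched, so a number need not name the same library at both lengths. Recovered loci held 144246 to 238654 reads per library at 22 nt and 135537 to 255136 at 21 nt. The 122 loci held between 8.12% and 13.8% of the normalized 22-nt reads at recovered loci of a library, and between 2.54% and 4.18% of the 21-nt reads.

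The mutated gene DCL4 itself gave few small RNAs, with 4.39, 4.07 and 5.23 normalized 22-nt reads in Col-0 on MS, 3.45, 4.15 and 7.54 in Col-0 on MS-N, then in dcl4-2 1.02, 1.03 and 1.07 with nitrogen and 4.46, 5.95 and 11.1 without it. Reads from the locus do not tell whether the enzyme is made. Trans-acting siRNAs (tasiRNAs), which DCL4 normally cuts at 21 nt, check the genotype labels better. In the authors' class table they held 23904 to 50330 rpm at 21 nt over the 6 Col-0 libraries and 1034 to 2866 rpm over the 6 dcl4-2 libraries, so every library matched its label. Library 3 of dcl4-2 on MS stood apart in its summed pseudogene reads, given below, and was the highest of its group at 71 of the 122 loci at 22 nt. Library 1 of Col-0 on MS-N was the highest of its group at 69 loci, and without the microRNA genes it summed to 13381 normalized 22-nt reads, beside 12641 and 11741 in its group. Results that rest on library 3 of dcl4-2 on MS are given with and without it.

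By RefSeq type, the 122 loci comprised 75 pseudogenes (5 of them transcribed), 42 protein-coding loci, 4 microRNA genes and 1 locus without a match. Pseudogenes without a transcript were 57.4%, 70 loci, against 3903 of all 32420 loci of the tables, and protein-coding loci 34.4% against 82.4%. The same minimum of 22-nt reads was met by 251 loci. The 129 of these with a lower 22-nt share comprised 34 microRNA genes, 49 protein-coding loci and 46 pseudogenes, 8 of them transcribed. Chromosomes 1 to 5 held 31, 31, 19, 17 and 23 of the chosen loci, and 12 loci overlapped another annotated gene. No strand is given for the reads, so reads of overlapping genes cannot be told apart. Of the 42 protein-coding loci, 6 have products named for a retrotransposon, reverse transcriptase or ribonuclease H, as have 130 of the 26712 protein-coding loci in the tables.

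Sequence repeated elsewhere in the genome was common at these loci. The median share of a locus' 22-base words found elsewhere in the genome was 22.1%, against 1.14% over all loci kept for the tests. It was 24.1% over the loci of equal 22-nt level and lower share, and 45.7% without their microRNA genes. The pseudogenes among the 122 loci had a median of 27.8%, below the 39.5% of all pseudogenes kept, and the protein-coding loci 17.8%, above the 0.657% of all protein-coding loci kept. Among the 122 loci, 33 pairs shared at least 10% of these words with each other. They joined 43 loci into 17 groups of at most 4, and 79 loci had no such partner. The loci are therefore not independent, and with each group taken once there were 96 separate sets. Exact inverted 22-base words were absent from 118 of 121 loci with a sequence, and from 19498 of 19855 loci kept. The 4 microRNA genes, whose precursors are hairpins, held none of them either. This count therefore does not show whether a locus can fold into a hairpin.

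The bounds of the choice cut through a continuous range. Just inside the level bound were AT1G78095 and AT1G36305, with lowest Col-0 means of 50.5 and 50.7 normalized 22-nt reads, and just outside were AT4G03310 and AT5G49590 with 49.8 and 49.7. Just inside the share bound were AT2G45230 and AT3G54730, with lowest Col-0 shares of 65.1% and 65.2%, and just outside were AT5G35535 and AT5G36935, both just under 65%.

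The 22-nt share did not collapse without DCL4. Its median over the 122 loci was 71.7% in Col-0 on MS and 71.3% in Col-0 on MS-N, values that the choice itself fixed, and in dcl4-2, which it did not use, 71.4% on MS and 72.4% on MS-N. Over all loci kept, the medians were 55.8% and 54.2% in Col-0 and 58.5% and 58.4% in dcl4-2. In dcl4-2 the share was at least 65% at 109 loci on MS and at 116 on MS-N, at 106 loci on both media, and at least 50% at all 122 loci on both media. It differed from that of Col-0 on the same medium by under 5 percentage points at 84 loci on MS and at 98 on MS-N. The share was lower in dcl4-2 than in Col-0 at 74 loci on MS and at 56 on MS-N. These shares are ratios of group means without a spread, since libraries could not be matched between lengths, and no test was made of them. Each length has its own size factors, so they are not shares of whole reads. On MS the factors were 0.957 to 1.14 at 22 nt and 0.968 to 1.16 at 21 nt in Col-0. In dcl4-2 on MS they were 0.933 to 0.977 and 0.863 to 0.944. Small differences in share between groups, and the counts of loci with a lower share, can therefore depend on the normalization.

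AT4G20095, which encodes a DUF626 protein, had the highest share in dcl4-2, 96.5% on MS and 95.2% on MS-N. AT3G25855, annotated in the copper transport protein family, had 90.8% and 92.1%. The lowest shares in dcl4-2 on MS were 57.2% at AT4G02760, an RNI-like protein gene, and 59.6% at the pseudogene AT3G26483. On MS-N the lowest was 62.7%, at GH9B11, a glycosyl hydrolase gene. These 5 loci were chosen for their shares.

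**Figure D1:**
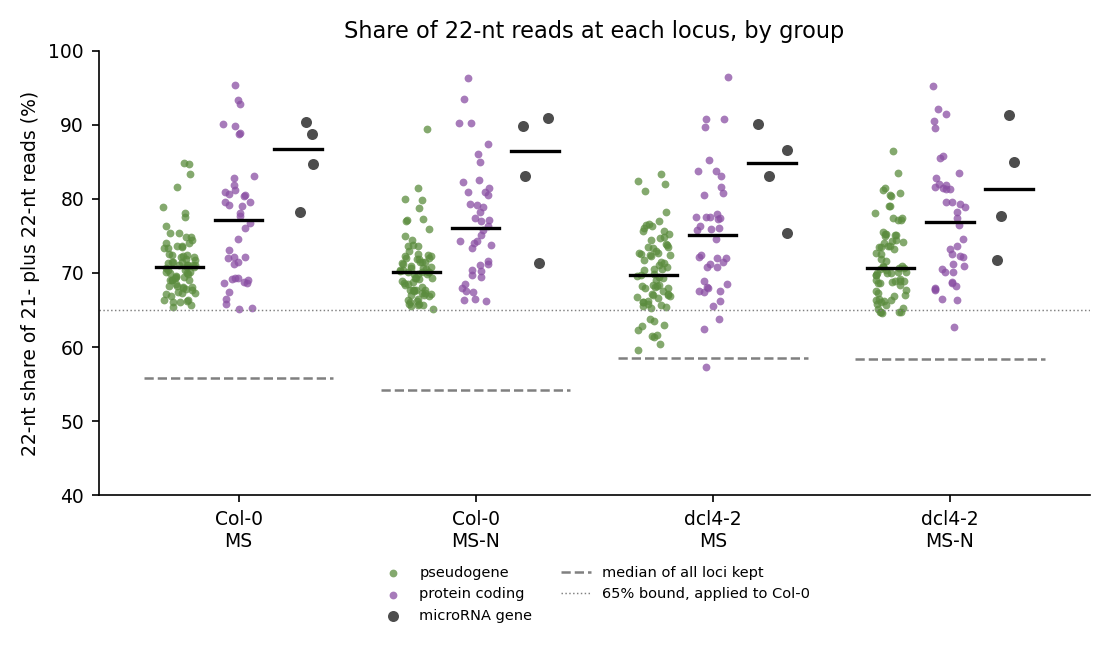
Share of normalized 22-nt reads in the sum of normalized 21- and 22-nt reads (%, vertical axis) at 121 loci with a RefSeq type. In each of the 4 groups a point is a locus computed from group means, and a black bar the median of its type. Grey dashed lines are the medians of all loci kept (54.2% to 58.5%), and the dotted line is the 65% bound applied to Col-0; in dcl4-2 most points stay above it.

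Compared with Col-0, dcl4-2 on MS-N gave less of both lengths at most of these loci. At 22 nt the median ratio of group means, dcl4-2 over Col-0, was 0.662 on MS-N and 0.854 on MS, and at 21 nt it was 0.634 and 0.955. The medians over all loci kept were 1.49 on MS-N and 0.907 on MS at 22 nt, and 1.21 and 0.873 at 21 nt. Most loci kept read low: 3929 of 20153 reached 10 in 3 libraries at 22 nt, and 2805 of 19393 at 21 nt. Size factors on MS-N at 22 nt were 0.72 to 0.90 in dcl4-2 and 1.33 to 1.45 in Col-0. A single read there gives a higher value in dcl4-2, which raises the ratio at low loci. Since Col-0 values chose the 122 loci, their ratios are a description and no test was made: a minimum set on Col-0 alone favours loci that read high there. The size of these ratios depended on the scaling. One scaling set the microRNA sums of the libraries equal. Here and below, these sums cover only microRNA genes with recovered libraries. They leave out genes whose means were too high to split, MIR173 and MIR319b among them at 21 nt. As log2 ratios of group means plus 1, the medians were -0.59 on MS-N at 22 nt, -0.63 on MS-N at 21 nt and -0.07 on MS at 21 nt as deposited, and -1.38, -1.52 and -1.22 with libraries scaled to equal microRNA sums, where the medians of all loci kept were -0.04, -0.32 and -0.76. Of 122 loci, 112 had the lower mean in dcl4-2 at 22 nt on MS-N and 109 at 21 nt, and under 2 other scalings of the libraries 116 and 119 at 22 nt and 113 and 122 at 21 nt.

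On MS-N, the 3 dcl4-2 libraries lay wholly below the 3 Col-0 libraries at 89 loci at 22 nt, against 7.86% of all loci kept, and wholly above at 3, against 17.9%. At 21 nt, 77 loci lay wholly below (9.49% of all loci kept) and 4 wholly above (14.4%). Here and below, the shares of all loci wholly above or below include the many low loci and were not computed at a higher minimum. Both lengths were wholly below at 69 loci, a count that was not made over all loci. Among the loci of equal 22-nt level and lower share, 55 of 122 were wholly below at 22 nt and 52 wholly above. At 21 nt 56 of 107 of them (52.3%) were wholly below and 32 wholly above, beside 63.1% and 3.28% of the 122 loci. Wholly lower at 22 nt were 55 of the 75 pseudogenes and 33 of the 42 protein-coding loci. None of the 4 microRNA genes was wholly lower at either length. At 22 nt the 3 wholly higher loci included 1 microRNA gene, 1 pseudogene and 1 protein-coding locus, described below.

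On MS fewer loci separated the genotypes. At 22 nt, 38 loci lay wholly below Col-0 (6.09% of all loci kept) and 8 wholly above (5.84%). At 21 nt, 23 lay wholly below (6.93%) and 13 wholly above (5.14%). The loci of equal 22-nt level and lower share gave like shares on MS, with 37 of 122 (30.3%) wholly below at 22 nt and 24 of 107 (22.4%) at 21 nt, beside 31.1% and 18.9% of the 122 loci. Both lengths were wholly below at 15 loci, both media at 22 nt at 36, and both lengths on both media at 11. These joint counts were not made over all loci, so they have no background to be read against. Without library 3 of dcl4-2 on MS, taken in each length's own order, 65 loci lay wholly below at 22 nt and 36 at 21 nt. The median ratio at 22 nt was then 0.802. With libraries scaled to equal microRNA sums, 119 loci had the lower 21-nt mean in dcl4-2 on MS, against 74 as deposited. Without library 1 of Col-0 on MS, 21 loci lay wholly above at 21 nt. Leaving out a library can only keep or raise a count of loci wholly above or below. These counts without a library therefore do not show a larger difference, and the share of all loci was not computed for them.

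**Figure D2:**
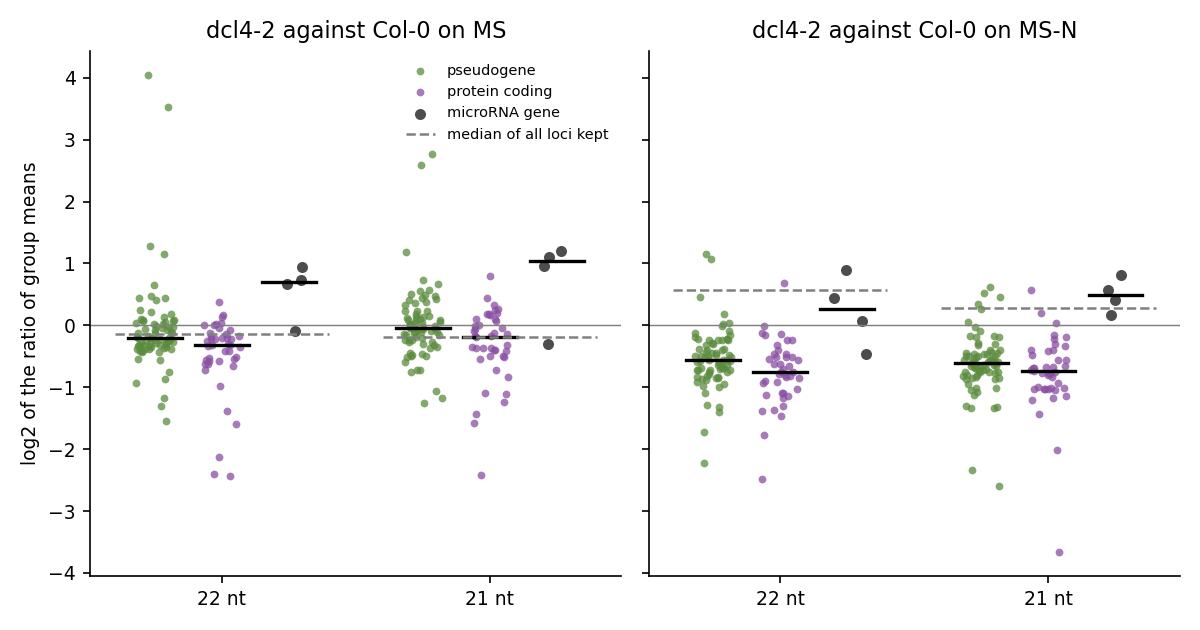
Ratio of group means, dcl4-2 over Col-0 (log2, vertical axis), at 22 and 21 nt on MS and on MS-N for 121 loci with a RefSeq type; points are loci, black bars medians of a type, dashed lines medians of all loci kept. On MS-N the pseudogenes and protein-coding loci lie mostly below 0, while the dashed lines lie above it; on MS 2 pseudogenes lie far above the rest.

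Summed over all 122 loci, the 22-nt reads of the genotypes overlapped on MS-N, with 21315, 15316 and 20930.2 in Col-0 and 21728, 16036 and 21362 in dcl4-2. MIR319c alone held a large part of these sums. The pseudogenes and the protein-coding loci were lower in dcl4-2 in every library on MS-N. The 75 pseudogenes together held 8391, 8118 and 7587 normalized 22-nt reads in the Col-0 libraries on MS-N and 6000.3, 5567 and 5535 in the dcl4-2 libraries on that medium. On MS they held 8681, 8261 and 8249.6 in Col-0 and 7242, 7534 and 13467 in dcl4-2, where library 3 stood far above the other two. The groups did not overlap on MS-N, and on MS they overlapped through that library. The pair AT5G29975 and AT5G31719 carried most of its excess. Without that pair and the microRNA genes, the remaining 116 loci held 12878, 12112 and 12249 in Col-0 on MS and 10108, 9900.4 and 11725 in dcl4-2 on MS.

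The 42 protein-coding loci held 4237, 3908 and 4042 normalized 22-nt reads in Col-0 on MS and 3058, 2844 and 3385 in dcl4-2 on MS. On MS-N they held 4856, 4427 and 4042 in Col-0 and 2852, 2616 and 2742 in dcl4-2. Both dcl4-2 groups lay below both Col-0 groups. Their 21-nt reads followed the same order on MS-N, with 1392, 1456 and 1356 in Col-0 and 913, 866 and 909 in dcl4-2. The study's class table, which counts reads of pseudogenes as a class, held 575, 584 and 544 rpm at 22 nt in Col-0 on MS-N and 524, 534 and 574 in dcl4-2 on MS-N, where the groups overlapped.

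**Figure D3:**
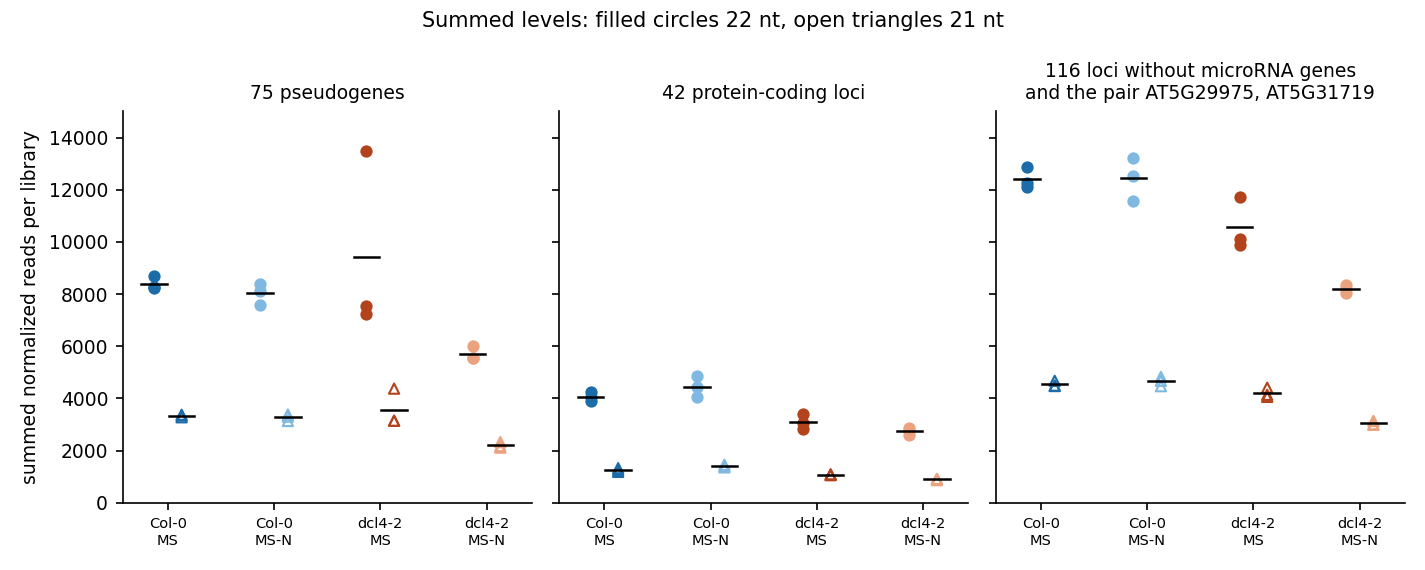
Summed normalized reads per library (vertical axis, from 0) over the 75 pseudogenes, the 42 protein-coding loci, and the 116 loci left without the microRNA genes and the pair AT5G29975 and AT5G31719. Filled circles are 22-nt sums, open triangles 21-nt sums and bars group means; 1 library of dcl4-2 on MS stands at 13467 over the pseudogenes and at 11725 over the 116 loci.

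In Col-0, more of these loci read higher on MS-N than lower. MS-N lay wholly above MS at 53 loci at 22 nt (11.1% of all loci kept) and wholly below at 21 (12.6%). At 21 nt, 38 lay wholly above (11.7%) and 17 wholly below (11.6%). The median ratio of MS-N over MS was 1.15 at 22 nt and 1.19 at 21 nt. Both groups chose the loci, so nothing was tested. The direction depended on the scaling: 39 of 122 loci had the lower 22-nt mean on MS-N as deposited, and 61 with libraries scaled to equal microRNA sums. The loci of equal level and lower share gave similar counts at 22 nt, with 57 of 122 wholly above and 22 wholly below. At 21 nt 38 of 107 of them (35.5%) lay wholly above and 14 (13.1%) wholly below, beside 31.1% and 13.9% of the 122 loci.

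The medium effect within dcl4-2 is the one comparison of loci that the choice did not use, and it was tested. At 22 nt, 27 of the 122 loci fell on MS-N and 9 rose, while 86 did not pass (limma on log2(value + 1), adjusted p of at most 0.05 by Benjamini-Hochberg over 20153 loci). Over all loci tested, 5.76% fell and 9.88% rose. At 21 nt, 18 fell and 1 rose, where 4.66% of the 19393 loci tested fell and 8.45% rose. The median log2 change of the 122 loci was -0.17 at 22 nt and -0.35 at 21 nt, against 0.32 and 0.28 over all loci tested. All 122 loci passed this filter on low values at both lengths. The background depended on the filter. With a minimum of 10 in 3 libraries, 991 of 3929 loci fell and 691 rose at 22 nt, beside 32 and 10 of 122. At 21 nt, 738 of 2805 fell and 573 rose, beside 34 and 3 of the 120 chosen loci that passed. Medians of all loci were then -0.15 and -0.21. The part of the chosen loci that fell was then similar to that of all loci, and a smaller part rose. At an unadjusted p of at most 0.05 in limma, 48 loci passed at 22 nt and 40 at 21 nt, in either direction. The share of all loci at that bound was not computed, so these counts have no background.

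Counts by type were unequal. Of the 75 pseudogenes, 17 fell and 1 rose at 22 nt, and 13 fell and 0 rose at 21 nt by limma. Among the 42 protein-coding loci, 7 fell and 7 rose at 22 nt, and 4 fell and 1 rose at 21 nt. With loci that share sequence taken once, 19 of the 96 sets held a locus that fell at 22 nt and 7 one that rose, and at 21 nt 13 and 1. Among the 122 tested loci of equal level and lower share, 11 fell and 49 rose at 22 nt, and without their microRNA genes 9 of 93 fell and 25 rose.

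Most loci that passed at 21 nt also passed at 22 nt. Passing at both lengths were 15 loci, 14 of which fell at both, while 21 passed at 22 nt only and 4 at 21 nt only. Whether the effect differs between the lengths was not tested. Across the 122 loci, the log2 ratios of MS-N over MS in dcl4-2 at 21 and 22 nt had a Pearson r of 0.84 and a Spearman rho of 0.74, and those of dcl4-2 over Col-0 on MS-N 0.85 and 0.70. These describe loci that share libraries and in part sequence.

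The authors' deposited table gave close counts for this comparison. At an adjusted p of at most 0.05 it listed 25 of the 122 loci as lower and 7 as higher at 22 nt, where it listed 6.8% and 8.38% of its 11960 loci with an adjusted p. At 21 nt the authors' deposited table listed 13 lower and 1 higher, beside 4.19% and 5.28% of 10341 loci. In the limma fit, the counts at 22 nt depended on the scaling of the libraries. With libraries scaled to equal microRNA sums, 62 of the loci fell and 0 rose at 22 nt, and 9 fell and 1 rose at 21 nt. With no mean-variance trend, 10 fell and 0 rose at 22 nt, and 4 and 0 at 21 nt. The 9 that rose became 5 without library 1 or without library 2 of dcl4-2 on MS, and 4 without library 1 or without library 3 of dcl4-2 on MS-N. The 1 that rose at 21 nt became 0 without either of the first 2 libraries of dcl4-2 on MS or on MS-N, and 2 without library 3 of either group.

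**Figure D4:**
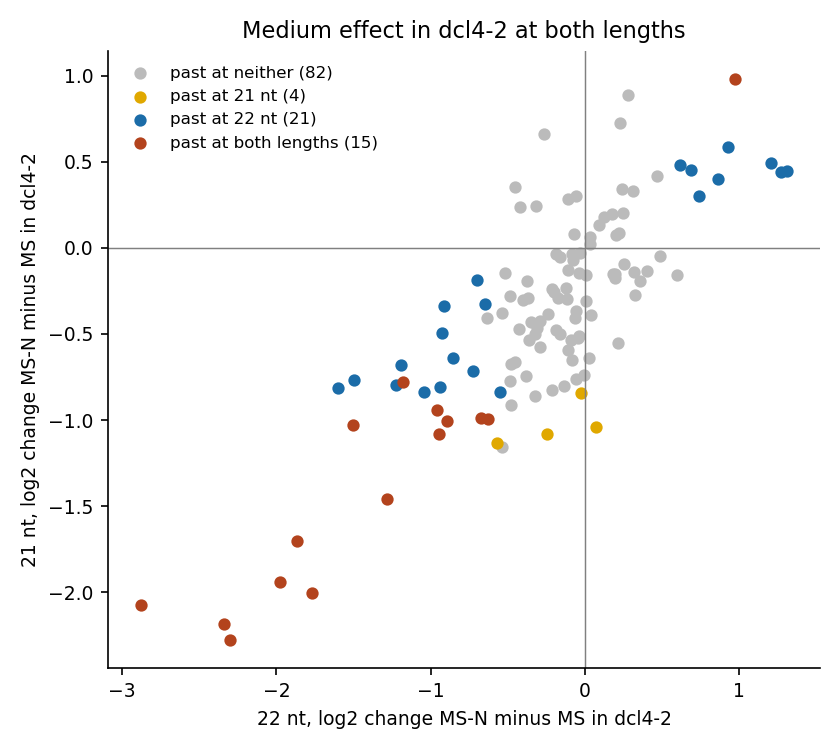
Medium effect in dcl4-2, log2 change of MS-N minus MS, at 22 nt (horizontal axis) and 21 nt (vertical axis) for the 122 loci, coloured by the length at which a locus passed an adjusted p of 0.05 in limma. The 15 loci that passed at both lengths lie at the lower left, apart from 1 at the upper right, and most of the 82 grey points lie near 0 on both axes.

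MIR831 held far fewer reads on MS-N than on MS in both genotypes. It held 758, 492 and 431 normalized 22-nt reads in Col-0 on MS and 64.3, 53.9 and 63.4 on MS-N. In dcl4-2 it held 152, 169 and 1255 on MS, then 54.7, 50.0 and 27.7 on MS-N. Every library on MS-N lay below every library on MS, and library 3 of dcl4-2 on MS lay far above the rest of its group. The fall in dcl4-2 passed at 22 nt (log2 -2.88 ± 0.36 SE, adjusted p = 6.87e-08, limma with Benjamini-Hochberg) and held under all 14 alternative settings. Without library 3 of dcl4-2 on MS the log2 change was -1.89. At 21 nt it went from 20.1, 13.4 and 140.2 to 9.89, 9.26 and 4.13 in dcl4-2 and passed (log2 -2.08 ± 0.46 SE, adjusted p = 0.00104, limma with Benjamini-Hochberg). That call ended without library 3 of dcl4-2 on MS at 21 nt (log2 -1.07), which need not be the same library as at 22 nt. The 22-nt share of MIR831 was 88.8% and 89.8% in Col-0, with and without nitrogen, and 90.1% and 85.0% in dcl4-2.

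MIR319c, whose family directs the cutting of TCP transcription factor messages in leaf growth, had the highest 22-nt level of the 122 loci. It held 648, 5347 and 2293 normalized 22-nt reads in Col-0 on MS and 6033, 1064 and 7654 on MS-N. In dcl4-2 it held 5869, 5929.97 and 1299.8 on MS, then 10718, 6069 and 10705 on MS-N. Groups overlapped in Col-0, and in dcl4-2 all MS-N libraries lay above those on MS. The rise in dcl4-2 passed at 22 nt (log2 1.31 ± 0.45 SE, adjusted p = 0.0384, limma with Benjamini-Hochberg). The authors' deposited table did not call it, with a log2 ratio of 1.07 and an adjusted p of 0.445. The limma call was lost in 8 of 14 alternative settings, among them without library 3 of dcl4-2 on MS and without library 1 or library 3 of dcl4-2 on MS-N. At 21 nt the change did not pass, with 807, 875 and 341 on MS, then 998, 626 and 978 on MS-N. Its 22-nt share lay between 86.6% and 91.4% in the 4 groups, although the annotated product is 21 nt long. At MIR319a and MIR319b the share in Col-0 on MS was 9.65% and 4.53%.

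MIR156a and MIR156b belong to the family that holds plants in the juvenile phase through SPL transcription factors. MIR156a held 1337, 1026 and 1158 normalized 22-nt reads in Col-0 on MS, 860.1, 949 and 960.3 on MS-N, 2112, 1963 and 1775 in dcl4-2 on MS and 1204, 1035 and 1526 on MS-N. The dcl4-2 libraries lay wholly above those of Col-0 on both media. MS-N lay below MS in both genotypes, and in dcl4-2 the fall passed (log2 -0.65 ± 0.12 SE, adjusted p = 0.000126, limma with Benjamini-Hochberg). MIR156b held 856, 576 and 455 in Col-0 on MS and 977, 609 and 511 on MS-N, then 1276, 1382 and 953 in dcl4-2 on MS and 819.9, 642 and 743 on MS-N. Its genotypes overlapped on MS-N but not on MS, and its fall on MS-N in dcl4-2 passed (log2 -0.70 ± 0.17 SE, adjusted p = 0.00367, limma with Benjamini-Hochberg). The 21-nt changes of both genes in dcl4-2 did not pass, with log2 -0.32 for MIR156a and -0.19 for MIR156b. Both 22-nt falls held under every alternative setting but the fit with no mean-variance trend.

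Most microRNA genes with an annotated 22-nt product were not chosen. Of 178 microRNA genes in the tables, 28 have an annotated 22-nt product. Of these 28, 10 reached the 22-nt level and 2 were chosen, MIR831 and MIR156a. Of the 150 others, 28 reached the level and 2 were chosen. The median 22-nt share in Col-0 on MS was 27.3% over genes with a 22-nt product and 7.93% over the others. Among 21 genes with a 22-nt product that were tested at 22 nt, 8 rose and 6 fell on MS-N in dcl4-2 by limma, and of 20 tested at 21 nt, 7 rose and 4 fell. Of the other microRNA genes, 36 rose and 20 fell of 118 at 22 nt, and 32 rose and 30 fell of 107 at 21 nt.

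At the further microRNA genes listed for comparison, most reads were 21 nt long or few reads were found, apart from MIR156c. In Col-0 on MS the 22-nt share was 0.802% at MIR173, which starts tasiRNA production, 5.56% at MIR393a and 0.242% at MIR393b, regulators of auxin receptors. It was 44.2% at both MIR447a and MIR447b, 19.3% at MIR400 and 4.26% at MIR842. MIR472 and MIR840 were listed at 0 in all groups, and MIR828 and MIR771 held means of at most 6.18 normalized reads at either length. MIR156c, with a share of 68.6% on MS and 55.1% on MS-N in Col-0, missed the choice on MS-N.

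**Figure D5:**
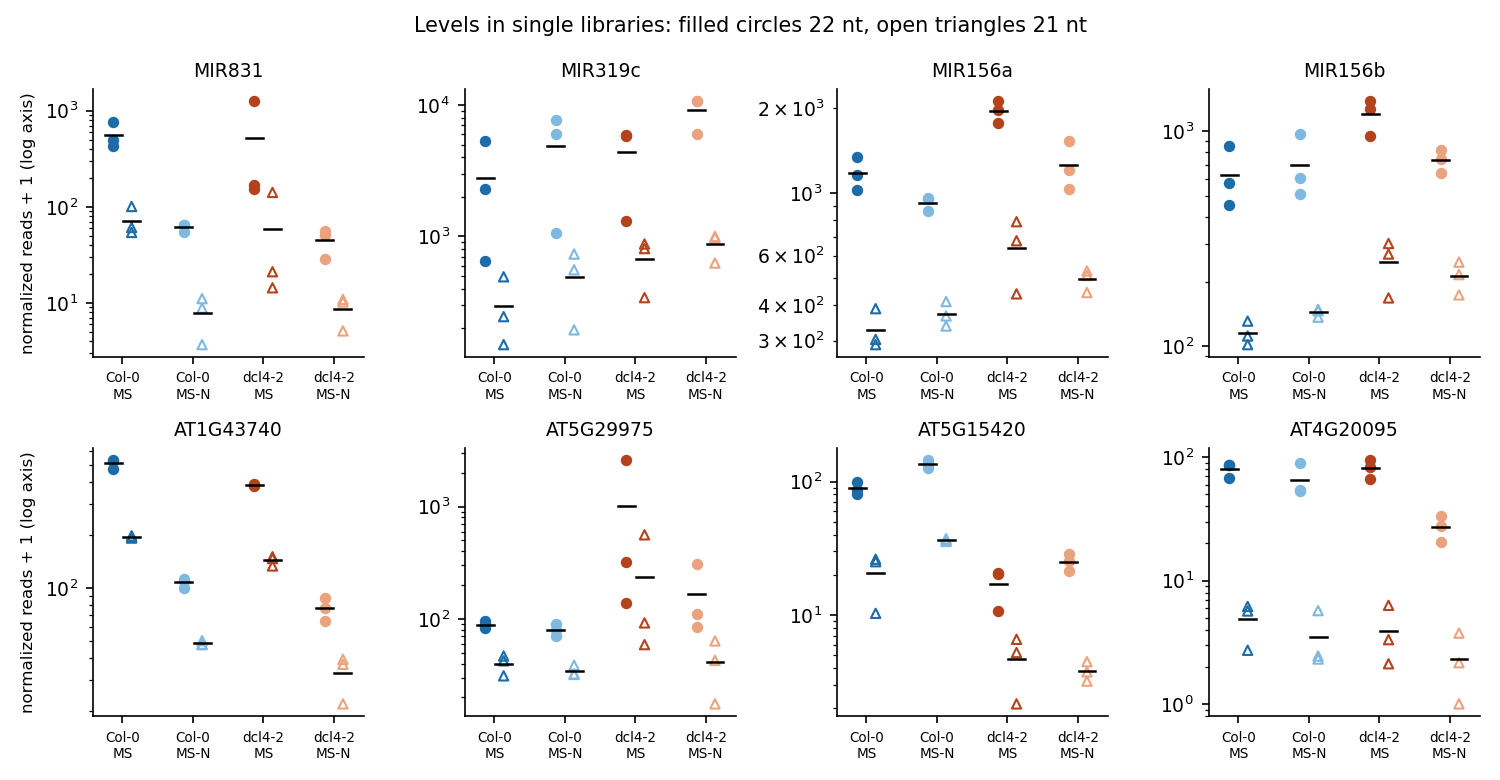
Normalized reads plus 1 (log axis) in every library of the 4 groups for the microRNA genes and 4 further loci, with filled circles for 22 nt, open triangles for 21 nt and bars for group means. MIR831 and AT1G43740 lie lower on MS-N in both genotypes, AT5G29975 has 1 library at 2576 in dcl4-2 on MS, and AT5G15420 lies lower in dcl4-2 on both media.

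Among the pseudogenes, 3 that share sequence had the largest log2 falls by limma on MS-N in dcl4-2 at 22 nt, and they lay wholly lower on MS-N in Col-0 too, at both lengths. AT1G43740 (chr1:16513076-16515138, minus strand) held 531, 527 and 474 normalized 22-nt reads in Col-0 on MS and 112, 108 and 99.6 on MS-N. In dcl4-2 it held 386, 389.8 and 378 on MS, then 87.0, 64.2 and 76.2 on MS-N. The 4 groups did not overlap, and dcl4-2 lay below Col-0 on each medium. Its fall in dcl4-2 to 0.197 of the level on MS passed at 22 nt (log2 -2.34 ± 0.17 SE, adjusted p = 5.39e-15, limma with Benjamini-Hochberg). At 21 nt it went from 132, 149 and 146 to 20.9, 38.2 and 35.8, which passed too (log2 -2.18 ± 0.25 SE, adjusted p = 1.04e-09, limma with Benjamini-Hochberg).

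Its neighbour AT1G43750 (chr1:16522213-16524114, minus strand) had ratios of MS-N over MS of 0.1996 in Col-0 and 0.202 in dcl4-2 at 22 nt. AT5G31927 (chr5:11767478-11772031, minus strand), on another chromosome, had 0.227 and 0.250. In dcl4-2 the log2 changes were -2.30 at AT1G43750 (adjusted p = 7.47e-15, limma with Benjamini-Hochberg) and -1.98 at AT5G31927 (adjusted p = 4.69e-11, limma with Benjamini-Hochberg). The falls of all 3 loci held at both lengths in all 14 alternative settings. Since they share the stretch printed above, they are not independent observations.

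The pair AT5G29975 (chr5:11323981-11329884, minus strand) and AT5G31719 (chr5:11689260-11692220, minus strand) had the highest ratios of dcl4-2 over Col-0, and by group means the lowest ratios of MS-N over MS in dcl4-2 among the pseudogenes, 0.165 and 0.146. AT5G29975 held 93.9, 86.6 and 81.5 normalized 22-nt reads in Col-0 on MS and 138, 318 and 2576 in dcl4-2 on MS. On MS-N it held 79.4, 69.1 and 89.0 in Col-0 and 307, 111 and 83.1 in dcl4-2. All dcl4-2 libraries on MS lay above Col-0, by very unequal amounts, and on MS-N the groups overlapped. AT5G31719 held 54.4, 55.0 and 72.1 in Col-0 on MS and 131, 239.7 and 2636 in dcl4-2 on MS, then 67.0, 58.1 and 71.7 in Col-0 on MS-N and 282, 92.8 and 63.7 in dcl4-2 on MS-N. Their 22-nt shares were 69.1% and 65.7% in Col-0 on MS and 81.1% and 82.4% in dcl4-2 on MS, from group means and without a test. At 21 nt AT5G29975 held 30.1, 45.7 and 41.3 in Col-0 on MS and 91.1, 58.0 and 559.7 in dcl4-2 on MS. The falls on MS-N in dcl4-2 at 22 nt, log2 -1.77 and -1.87 (adjusted p = 0.00451 and 0.00487, limma with Benjamini-Hochberg), ended without library 3 of dcl4-2 on MS (log2 -0.56 and -0.57), and that of AT5G31719 also without library 3 of dcl4-2 on MS-N. Libraries of the media overlapped at both loci. Each of them overlaps another annotated gene on the same strand.

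AT1G40101 and AT2G14180, which shares sequence with AT5G29975, were also high in that library. AT1G40101 held 109.5, 105 and 308 normalized 22-nt reads in dcl4-2 on MS, with 87.8, 65.2 and 61.7 in Col-0 on MS, and fell on MS-N in dcl4-2 to 51.3, 46.4 and 63.7 (log2 -1.50 ± 0.26 SE, adjusted p = 5.49e-05, limma with Benjamini-Hochberg). Without that library the log2 change of AT1G40101 was -0.99 and still passed. AT2G14180 held 71.7, 124 and 377 in dcl4-2 on MS, with 98.3, 96.8 and 63.8 in Col-0. Genotypes overlapped on MS at AT2G14180 but not at AT1G40101. The fall of AT2G14180 in dcl4-2 (log2 -0.93 ± 0.30 SE, adjusted p = 0.0266, limma with Benjamini-Hochberg) ended without that library (log2 -0.26), and also without library 2 or library 3 of dcl4-2 on MS-N.

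Further pseudogenes lay lower on MS-N in both genotypes. AT4G03650 held 122, 116 and 152 normalized 22-nt reads in Col-0 on MS and 54.6, 58.8 and 45.3 on MS-N, and 122, 129 and 163 on MS, then 45.7, 63.0 and 37.4 on MS-N in dcl4-2. Its genotypes overlapped on each medium, and MS-N lay wholly below MS. In dcl4-2 the fall passed at 22 nt (log2 -1.50 ± 0.22 SE, adjusted p = 2.12e-06, limma with Benjamini-Hochberg). It shares sequence with AT1G36305, which held 76.8, 95.7 and 128 on MS, then 52.4, 45.2 and 54.0 on MS-N in dcl4-2 (log2 -0.94 ± 0.23 SE, adjusted p = 0.00288, limma with Benjamini-Hochberg). AT4G05526, without a partner, held 126, 112 and 113 in Col-0 on MS and 54.6, 66.4 and 51.3 on MS-N, and 133, 158 and 80.4 on MS, then 58.0, 44.0 and 44.3 on MS-N in dcl4-2. There too MS-N lay wholly below MS in both genotypes, and the fall in dcl4-2 passed at 22 nt (log2 -1.28 ± 0.23 SE, adjusted p = 6.41e-05, limma with Benjamini-Hochberg) and at 21 nt (log2 -1.46 ± 0.31 SE, adjusted p = 0.000449, limma with Benjamini-Hochberg).

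AT3G43730, the most abundant pseudogene, held 748, 647 and 643 normalized 22-nt reads in Col-0 on MS and 429, 379.6 and 374 on MS-N, and 466, 572 and 628 on MS, then 338, 341 and 355 on MS-N in dcl4-2. MS-N lay wholly below MS in each genotype, and the fall in dcl4-2 passed at 22 nt (log2 -0.68 ± 0.14 SE, adjusted p = 0.000468, limma with Benjamini-Hochberg) and 21 nt (log2 -0.99 ± 0.21 SE, adjusted p = 0.000453, limma with Benjamini-Hochberg). AT2G31520 held 196, 205 and 189 in Col-0 on MS-N and 143, 148 and 129 in dcl4-2 on MS-N, without overlap, while its groups on MS overlapped, with 141, 178 and 161 in Col-0 and 147, 129 and 164 in dcl4-2. Its medium change in dcl4-2 did not pass (log2 -0.06, adjusted p = 0.845, limma with Benjamini-Hochberg). AT4G06477 lay higher in dcl4-2, with 135, 101 and 125 in Col-0 and 187, 154 and 229 in dcl4-2 on MS, and 91.9, 94.0 and 115 in Col-0 and 146, 149 and 118 in dcl4-2 on MS-N. On both media its genotypes did not overlap.

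RLP49 and AT1G20390 were among the 5 loci with the lowest 22-nt ratios of dcl4-2 over Col-0 on MS-N. RLP49, named for a receptor-like protein and annotated as a transcribed pseudogene, held 48.3, 50.9 and 55.4 normalized 22-nt reads in Col-0 on MS and 23.5, 12.3 and 17.1 in dcl4-2, and 60.1, 56.0 and 50.5 in Col-0 and 16.7, 10.7 and 8.31 in dcl4-2 on MS-N. AT1G20390 held 80.8, 96.8 and 79.4 in Col-0 and 62.5, 58.6 and 32.1 in dcl4-2 on MS, and 138, 127 and 98.8 in Col-0 and 32.3, 33.3 and 44.3 in dcl4-2 on MS-N. Genotypes did not overlap on either medium at these 2 loci. Both lengths were lower, with 21-nt ratios on MS-N of 0.166 at RLP49 and 0.199 at AT1G20390.

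Protein-coding loci held 4 of the 5 lowest 22-nt ratios of dcl4-2 over Col-0 on MS, and RLP49 the other. AT5G15420 (chr5:5007826-5008964, minus strand), an uncharacterized protein gene, held 86.0, 79.5 and 98.3 normalized 22-nt reads in Col-0 on MS and 19.5, 19.5 and 9.64 in dcl4-2, and 143, 134 and 126 in Col-0 and 24.5, 20.2 and 27.7 in dcl4-2 on MS-N. At 21 nt it held 35.4, 36.3 and 34.6 in Col-0 and 2.20, 3.47 and 2.75 in dcl4-2 on MS-N. Both lengths were thus several times lower in dcl4-2, with 22-nt ratios of 0.184 on MS and 0.180 on MS-N.

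AT5G15420 shares sequence with AT5G54700, and AT5G54700 with AT3G52830, both annotated as ankyrin repeat proteins. AT3G52830 held 62.3, 54.0 and 96.2 normalized 22-nt reads in Col-0 on MS and 22.5, 8.23 and 9.64 in dcl4-2, and 83.6, 91.3 and 67.9 in Col-0 and 35.7, 24.98 and 33.3 in dcl4-2 on MS-N. AT5G54700 held 52.7, 37.7 and 78.4 in Col-0 and 15.4, 10.3 and 12.9 in dcl4-2 on MS, and 89.1, 87.8 and 64.1 in Col-0 and 34.6, 24.98 and 33.3 in dcl4-2 on MS-N. Col-0 and dcl4-2 did not overlap on either medium at these loci. Within dcl4-2 both rose on MS-N at 22 nt, AT3G52830 by 1.27 and AT5G54700 by 1.21 on the log2 scale (adjusted p = 0.00200 and 0.00201, limma with Benjamini-Hochberg), and stayed below Col-0. With libraries scaled to equal microRNA sums, both calls were lost.

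AT1G32225 and AT2G24780, which share 65.2% and 59.3% of their 22-base words, held like values, and AT1G32225 is given beside its partner for that reason. AT2G24780 held 73.7, 64.2 and 67.9 normalized 22-nt reads in Col-0 on MS and 20.5, 18.5 and 28.9 in dcl4-2, and 71.2, 67.1 and 59.6 in Col-0 and 52.4, 28.5 and 47.1 in dcl4-2 on MS-N. AT1G32225 held 88.7, 84.6 and 85.7 in Col-0 and 28.7, 24.7 and 46.1 in dcl4-2 on MS, and 100.2, 94.7 and 85.2 in Col-0 and 65.8, 39.3 and 61.0 in dcl4-2 on MS-N. Both lay wholly lower in dcl4-2 on each medium. They rose there on MS-N, though single libraries of the media overlapped, AT2G24780 by 0.87 and AT1G32225 by 0.74 (log2, adjusted p = 0.0176 and 0.0324, limma with Benjamini-Hochberg). Both calls were lost in the same 8 of 14 settings, among them without library 1 or library 2 of dcl4-2 on MS and without library 1 or library 3 of dcl4-2 on MS-N.

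AT4G20095 fell on MS-N at 22 nt. At 22 nt it held 81.9, 65.8 and 93.2 normalized reads on MS and 26.8, 32.1 and 19.4 on MS-N in dcl4-2 (log2 -1.60 ± 0.25 SE, adjusted p = 6.56e-06, limma with Benjamini-Hochberg), and 86.0, 67.2 and 85.7 on MS, then 88.4, 51.9 and 52.8 on MS-N in Col-0, where the groups overlapped. Its 21-nt reads were near 0, with 5.30, 1.12 and 2.32 on MS, then 0, 1.16 and 2.75 on MS-N in dcl4-2, too few to show a change. The 22-nt fall held under all 14 alternative settings. AT2G16030, a methyltransferase family gene, was the most abundant protein-coding locus. It held 404, 449 and 354 on MS, then 227, 227 and 168 on MS-N in Col-0, and 220.1, 253 and 375 on MS, then 145, 140.4 and 152 on MS-N in dcl4-2. It fell in dcl4-2 at 22 nt (log2 -0.91 ± 0.18 SE, adjusted p = 0.000210, limma with Benjamini-Hochberg), while its 21-nt change did not pass (log2 -0.34).

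WRKY43, a transcription factor gene and the only one of the 122 loci to rise at both lengths in the limma fit, was named after its values were seen. At 22 nt it held 86.9, 73.3 and 86.8 normalized reads on MS and 168, 160.4 and 139.6 on MS-N in Col-0, and 55.3, 49.4 and 61.1 on MS, then 108, 119 and 101 on MS-N in dcl4-2. MS-N lay above MS in both genotypes, and the rise in dcl4-2 passed at 22 nt (log2 0.98 ± 0.20 SE, adjusted p = 0.000517, limma with Benjamini-Hochberg) and 21 nt (log2 0.98 ± 0.30 SE, adjusted p = 0.0207, limma with Benjamini-Hochberg). The 22-nt call was lost with libraries scaled to equal microRNA sums and with no mean-variance trend. The 21-nt call was lost in 7 of 14 settings, namely with no trend, only the dcl4-2 libraries or trimmed-mean scaling, and without library 1 or library 2 of either dcl4-2 group. AT3G30820, a retrotransposon ORF-1 protein gene, was the protein-coding locus wholly higher in dcl4-2 on MS-N, with 41.5, 63.6 and 67.9 in Col-0 and 82.5, 94.0 and 101 in dcl4-2. On MS its genotypes overlapped, with 60.6, 44.8 and 55.4 in Col-0 and 48.1, 47.3 and 80.4 in dcl4-2. Its rise on MS-N in dcl4-2 (log2 0.69 ± 0.24 SE, adjusted p = 0.0463, limma with Benjamini-Hochberg) held in 3 of 14 alternative settings, and of the 6 dcl4-2 libraries only library 3 on MS could be left out without its loss.

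AT1G11785 and AT1G48953, uncharacterized protein genes, were low in dcl4-2 on MS-N. AT1G11785 held 100.2, 49.1 and 52.8 normalized 22-nt reads in Col-0 and 20.1, 20.2 and 33.3 in dcl4-2 on MS-N, and AT1G48953 held 56.7, 55.3 and 47.5 in Col-0 and 16.7, 11.9 and 18.0 in dcl4-2. The genotypes did not overlap there at either locus. AT1G11785 fell on MS-N in dcl4-2 at 22 nt (log2 -0.86 ± 0.28 SE, adjusted p = 0.0306, limma with Benjamini-Hochberg), a call lost without library 1 or library 2 of either dcl4-2 group. AT1G48953 fell on MS-N in dcl4-2 at 21 nt, from 11.7, 17.8 and 15.1 to 3.30, 6.94 and 9.63 (log2 -1.13 ± 0.37 SE, adjusted p = 0.0328, limma with Benjamini-Hochberg), a call held in 6 of 14 settings and lost without library 2 or library 3 of dcl4-2 on MS or library 1 of dcl4-2 on MS-N. AT1G31163, an F-box associated family gene, fell at 21 nt, from 46.6, 35.7 and 49.8 on MS to 23.1, 19.7 and 17.9 on MS-N (log2 -1.08 ± 0.32 SE, adjusted p = 0.0168, limma with Benjamini-Hochberg), a call lost without library 1 of dcl4-2 on MS or library 3 of dcl4-2 on MS-N, with 22-nt values of 92.1, 112 and 77.2 on MS, then 74.7, 90.4 and 70.7 on MS-N. AT1G53880 and AT1G53900, named for translation initiation factor eIF-2B, held equal 22-nt reads in 9 of 12 libraries, and their reads cannot be told apart.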

How the data were processed

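Small RNA of 12 libraries, 3 biological replicates in each of 4 groups, was analysed from the deposited tables. The submitters' processing notes name Bowtie 1.2.2, SAMtools 1.9 and the build TAIR10, and how reads matching several loci or either strand were counted is not given in the sources used here. The deposited gene tables, 1 per read length, hold 32420 loci and give group means. The signal in the authors' deposited tables is called TPM per the file headers, but its low values are those of a mean of whole reads divided by library size factors. That reading is an inference from the values. The authors' deposited tables also hold log2 fold changes and adjusted p-values, and a class table in rpm per library.

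From each mean, the reads of the 3 libraries were recovered as the one combination of whole reads that gives it, which succeeded for every mean tried. Means too high for a single combination, at 7 loci at 22 nt and 26 at 21 nt, were left out. They held up to 40.8% of a column's sum at 22 nt and 86.0% at 21 nt. The microRNA sums used for scaling leave them out too. Size factors were 0.72 to 1.53. The recovered depth limits the precision at low values, and no interval is given for shares, which are ratios of group means. Recovered libraries carry no replicate number and could not be matched between the tables.

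The medium effect in dcl4-2 was tested on log2(value + 1) with limma 3.58.1 in R 4.3.3, with a mean-variance trend, all 4 groups in the fit, loci of at least 1 in at least 3 libraries, and Benjamini-Hochberg adjustment over all loci kept. The p-values rest on the spread between biological replicates, pooled over the 4 groups and drawn toward a trend over all loci kept. They can therefore be smaller than a locus' own libraries alone would give. On simulated data the fit recovered 89 of 100 loci changed by a log2 of 2 and 13 of 100 changed by a log2 of 1 at 22 nt, and 90 and 11 at 21 nt, with 8 unchanged loci called at each length. The simulation changed only these loci and gave every locus the same added spread. The real fit called 3153 of 20153 loci at 22 nt and 2542 of 19393 at 21 nt, which loosens the adjusted bound. The simulated shares are therefore not the power of the reported test. Genotype effects, medium effects in Col-0 and shares are given without a test, since Col-0 values chose the loci. "Wholly above" or "wholly below" means that all 3 libraries of one group lay beyond all 3 of the other.

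The loci and lists were chosen with earlier results of these data known. Named loci are every microRNA gene, the 10 highest in Col-0 at 22 nt, the 10 with the largest passing medium effect in dcl4-2 at each length, and the 5 highest and 5 lowest dcl4-2 to Col-0 ratios on each medium. WRKY43, AT1G32225, the loci with extreme shares and the eIF-2B pair were added after their values were seen. Gene types, positions and sequences are from RefSeq TAIR10.1, in which 31722 locus identifiers matched.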

Additional observations from a re-analysis of the deposited data

Results flagged for a closer look

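At 8 loci, libraries on MS-N lay wholly above those on MS in Col-0 and wholly below them in dcl4-2. The difference between the genotypes was not tested, and Col-0 values chose the loci. At 22 nt the ratio of MS-N over MS was 1.37 in Col-0 and 0.843 in dcl4-2 at AT1G58020, 1.58 and 0.773 at AT1G67626, and 1.56 and 0.756 at AT4G20725. These 3 loci share sequence. It was 1.09 and 0.751 at AT2G02110, and 1.35 and 0.801 at AT2G46460, a protein-coding locus with a ribonuclease H-like product. At 21 nt the ratio was 1.26 in Col-0 and 0.751 in dcl4-2 at AT2G31520, 1.68 and 0.573 at AT3G43625, and 1.19 and 0.617 at AT5G39770.

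At 22 nt these were 5 of the 122 loci, or 4.10%, beside 0.372% of all loci kept, and at 21 nt 3 loci, or 2.46%, beside 0.315%. Among the loci of equal 22-nt level and lower share it was 2 of 122 (1.64%) at 22 nt and 3 of 107 (2.80%) at 21 nt. Of the 122 loci, 0 moved the opposite way at either length, beside 1.08% of all loci kept at 22 nt and 0.660% at 21 nt.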

How the results depend on the processing

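No paired analysis was possible because the recovered libraries carry no replicate numbers. The planned count tests were not run, since the deposited values are not counts. The genotype and Col-0 medium alternatives, and those for WRKY43 and AT1G32225, were chosen after seeing the data. Trimmed-mean scaling and microRNA scaling each moved the median of all loci by more than 0.1 on the log2 scale in some comparisons. For MS-N over MS in dcl4-2 at 21 nt it was 0.30 as deposited, 0.19 with trimmed-mean scaling and 0.29 with microRNA scaling. For dcl4-2 over Col-0 on MS-N at 22 nt it was 0.38 as deposited, 0.13 with trimmed-mean scaling and -0.04 with microRNA scaling.

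For the medium effect in dcl4-2 at 22 nt, 1992 loci rose and 1161 fell in all. With a minimum of 10, 691 of 3929 loci rose and 991 fell. The rising count was 1306 with only dcl4-2 libraries in the fit and 760 with microRNA scaling, where 1755 fell. Of the 122 loci, 9 rose and 27 fell. The rising count was 0 without a trend, 4 with only dcl4-2 libraries, 5 with trimmed-mean scaling and 0 with microRNA scaling, and 4 to 9 on leaving out 1 library. The falling count was 10 without a trend, 62 with microRNA scaling, and 22 to 25 on leaving out 1 library.

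At 21 nt, 1639 loci rose and 903 fell in all. With a minimum of 10, 573 of 2805 loci rose and 738 fell. The rising count was 868 with only dcl4-2 libraries and 987 with microRNA scaling, and the falling count 531 and 571 under the same 2. Of the 122 loci, 1 rose and 18 fell. The rising count was 2 with a pseudocount of 5, 3 with a minimum of 10, 0 without a trend, with only dcl4-2 libraries or with trimmed-mean scaling, and 0 to 2 on leaving out 1 library. The falling count was 34 with a minimum of 10, 4 without a trend, 8 with only dcl4-2 libraries, 30 with trimmed-mean scaling, 9 with microRNA scaling, and 13 to 16 on leaving out 1 library.

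For dcl4-2 against Col-0 on leaving out 1 library, loci wholly lower numbered 39 to 65 on MS at 22 nt and 27 to 36 at 21 nt, and loci wholly higher 15 to 21 on MS at 21 nt and 3 to 5 on MS-N at 22 nt. Such counts can only stay or rise when a library is left out. With microRNA scaling, 119 loci had a lower mean on MS at 21 nt, and 61 a lower 22-nt mean on MS-N in Col-0. Changes in direction were seen at 3 loci that had not passed. The log2 change was 0.0187 at AT2G31520 at 22 nt without library 3 of dcl4-2 on MS, 0.0010 and 0.1652 at AT5G15420 at 21 nt without library 1 or 2 of dcl4-2 on MS, and -0.0507 at AT5G54700 at 21 nt without library 3 of dcl4-2 on MS-N. The cause was not tested. The fit without a trend ended the 22-nt calls of MIR156a, MIR156b, AT1G36305, AT2G16030 and AT3G43730, which held under the other settings.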
